A study of Mus musculus with 42 samples.

Results

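The expression of 10 genes that handle fatty acids at the cell surface and just inside it was followed in mice dosed with the polycyclic aromatic hydrocarbon benzo(k)fluoranthene (BkF). They were Cd36, Lpl, Vldlr, Slc27a1, Slc27a2, Slc27a4, Fabp1, Fabp2, Fabp5 and Cidec, 10 of 20018 named genes, found by gene symbol and represented by 13 of 55681 probes. Cd36 was chosen for its measured direction, higher in high-dose liver and lower in high-dose lung, so its high-dose values in those tissues are a description and carry no test. The other doses of liver and lung are set against the same vehicle arrays, so Cd36 carries no test there either. The other 9 genes were taken with it to ask whether they moved the same way.

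All mice were adult Muta™Mouse males, a transgenic strain that carries a bacterial reporter gene for mutation assays, aged about 11 weeks. They were gavaged for 28 days with olive oil alone (D0, vehicle) or with BkF in olive oil at 25 (D1, low dose), 50 (D2, medium dose) or 100 mg/kg-bw/day (D3, high dose), and tissues were taken 72 h after the last dose. For D0, D1, D2 and D3 in turn, there were 4, 3, 4 and 4 lung arrays, 4, 2, 3 and 4 liver arrays and 4, 3, 4 and 3 forestomach arrays, 42 in all from 15 mice, each array holding RNA of 1 tissue of 1 mouse. Some mice of the BkF experiment died of accidental lung puncture during gavage, per the study's methods. RNA came from random sections of whole tissue, so fewer cells of a type and less RNA per cell cannot be told apart.

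Each value below is the log2 ratio of the sample to a reference RNA pooled from mouse cell lines that was hybridised on the same array. A ratio compares arrays for 1 gene and is no level that can be set against another gene's. A gene was called when limma's Benjamini-Hochberg adjusted p over all tested probes was at most 0.05 and the change was at least 1.5-fold. All 10 genes were tested in every tissue, Cidec in liver with signal well above background on 5 of 13 arrays, all of them treated. Cyp1a1, a target of the aryl hydrocarbon receptor used here as a check of exposure, exceeded the vehicle level by 6.81 ± 0.75 (SE) in high-dose lung (adjusted p = 0.00341 by limma), by 5.26 ± 1.03 in high-dose liver (adjusted p = 0.13) and by 3.24 ± 0.85 in high-dose forestomach (adjusted p = 1). Some arrays carried markers of neighbouring tissue. Of the 12 marker lists scored as the mean log2 distance from the tissue's median array, skeletal muscle reached 5.67 on the lung array of D2 mouse 12 and 4.94 on the liver array of D3 mouse 17. The same lung array also had high scores for macrophages (2.70) and squamous epithelium (3.16), and the liver array of D3 mouse 17 had a white fat score of 1.80. On the low-dose lungs the glandular stomach score was 3.25 for mouse 7, 0.87 for mouse 8 and -0.14 for mouse 9, against -0.43 to 0.15 in vehicle lungs, and its part in the low-dose lung values was not tested. The glandular stomach score lay between -5.24 and -4.22 on 5 forestomach arrays and between -0.47 and 0.66 on the other 9.

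Long-chain fatty acids reach a cell either free, bound to albumin, or inside the triglyceride of circulating lipoproteins. Lipoprotein lipase frees them from triglyceride at the capillary wall, CD36 and the fatty acid transport proteins take them across the membrane, and small binding proteins carry them through the cytosol to be burned or stored in lipid droplets. Hepatocytes rely mainly on transport proteins and on the liver binding protein FABP1 and normally carry little CD36, while the capillary endothelium and macrophages of lung are rich in CD36.

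In vehicle mice the 10 genes differed in where they were used. Between lung and liver 9 of the 10 were called, beside 40.8% of all probes. Between lung and forestomach 6 were called, beside 33.5% of all probes. Between liver and forestomach 7 were called, beside 37.5%. Each count includes Cd36, which was chosen on the vehicle lung and liver arrays, so its part in the counts is no test. Liver lay on slides of its own, so tissue and slide cannot be told apart in its comparisons. Cd36, the scavenger receptor and fatty acid translocase, averaged 4.57 ± 0.20 (SD, n = 4) in lung, 0.86 ± 0.41 in forestomach and -0.51 ± 0.25 in liver. The gene was chosen on the vehicle lung and liver arrays, so this order is a description and carries no test. Lpl, the lipase itself, was highest in lung as well, at 1.30 on average against -0.22 in forestomach and -0.57 in liver, and the last pair did not differ beyond its spread (adjusted p = 0.631 by limma). A second Lpl probe averaged 1.36 in lung, 0.52 in liver and 0.16 in forestomach, the last 2 in the reverse order and with a smaller step from lung to liver. Vldlr, the receptor that docks triglyceride-rich particles, averaged 0.35 in lung, -1.42 in forestomach and -3.67 in liver, where 1 of 4 vehicle arrays had signal well above background.

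The transport and binding proteins divided by tissue. Slc27a2, a very-long-chain acyl-CoA synthetase and transporter of liver and kidney, averaged 10.46 in liver against 0.99 in lung and 0.49 in forestomach, a pair that did not differ beyond their spread (adjusted p = 0.166 by limma). Its reference channel was well above background on 3 of 13 liver arrays and on none of the lung arrays, so these ratios rest on a denominator near the floor. Fabp1 was at 10.95 in liver, 4.50 in lung and 1.43 in forestomach, and its reference channel was well above background on 0 of 15 lung and 0 of 14 forestomach arrays. Fabp2, the intestinal binding protein, was at 8.30 in liver, 0.95 in forestomach and 0.53 in lung, and the latter 2 did not differ beyond their spread (adjusted p = 0.485 by limma). Slc27a2, Fabp1 and Fabp2 were each well above background on only 2 of 4 vehicle forestomachs, and Fabp2 on 3 of 4 vehicle lungs. Their forestomach averages thus lie partly at background, and the glandular stomach score also differed among those arrays. Fabp5, the epidermal binding protein, had its highest ratio in forestomach, a squamous organ, at 4.83 against -0.13 in lung, and in liver it was lower than in lung by a further 0.96. Slc27a4 was higher in lung (2.02) than in forestomach (0.58) or liver (0.28), which did not differ (adjusted p = 0.116 by limma). Slc27a1, the transporter of muscle and fat, averaged -0.07 in forestomach, -0.44 in lung and -0.95 in liver, and only its step from forestomach to liver was called. Cidec, which fuses lipid droplets in fat cells, did not rise clear of background on the 4 vehicle livers, and its sample signal was at least 6.64-fold higher in lung.

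**Figure D1:**
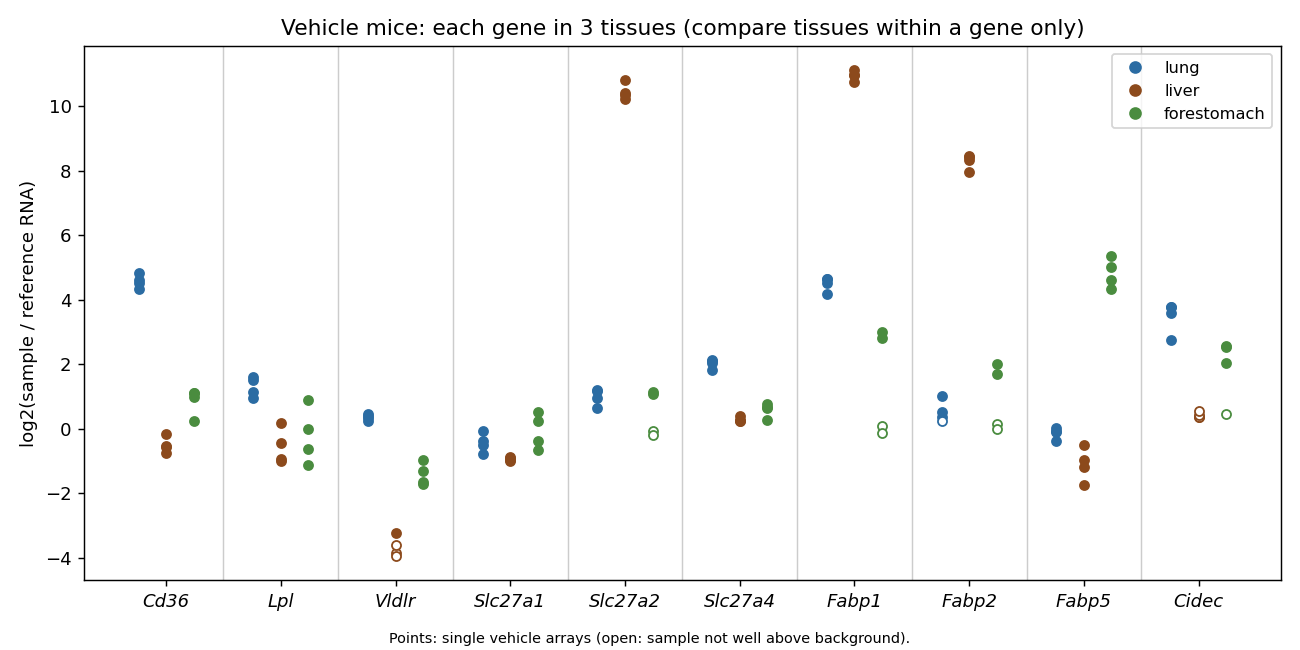
Log2 ratio of sample to reference RNA (vertical axis) of each of the 10 genes in the 4 vehicle mice, by tissue, 1 point an array, open where the sample signal was not well above background. Cd36, Lpl, Vldlr and Slc27a4 stood highest in lung, Slc27a2, Fabp1 and Fabp2 in liver, and Fabp5 in forestomach.

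Cd36 was higher than vehicle on every treated liver array, at each of the 3 doses. The vehicle livers gave -0.57, -0.53, -0.17 and -0.76 (mice 1 to 4), the low-dose livers 1.18 and 0.73 (mice 8 and 9), the medium-dose livers 1.25, 2.78 and 1.85 (mice 11 to 13) and the high-dose livers 0.25, 1.45, 1.29 and 1.39 (mice 16, 17, 19 and 20). High-dose mouse 16 was the lowest of the treated. The differences from vehicle were 1.46 ± 0.38 (SE), 2.47 ± 0.34 and 1.60 ± 0.31 at low, medium and high dose, or 2.76-fold, 5.53-fold and 3.03-fold. The 3 differences share the same 4 vehicle arrays. The gene was chosen on these vehicle arrays, so the differences are a description: the medium dose crossed limma's threshold, but not without any 1 vehicle array, either low-dose array, medium-dose mouse 13 or high-dose mouse 20, nor in 5 of the other settings. Its value was 2.06 to 2.82 without any 1 array and 2.35 to 3.26 in those settings. The high-dose difference was 1.40 and 1.81 within the liver slides and 1.28 without mice 17 and 20, whose arrays held fat or muscle markers. Scores of other marker lists also varied among the livers. That of lung alveolar epithelium (6 of 8 markers detected) ran from -0.21 to -0.09 in vehicle livers, 0.04 to 0.08 at low, 0.11 to 0.15 at medium and -0.12 to 0.51 at high dose. The hepatocyte score (8 of 8 detected) ran from 0.08 to 0.32 in vehicle livers, 0.09 to 0.14 at low, -0.31 to 0.00 at medium and -0.40 to 0.05 at high dose. Their part in the Cd36 values was not tested.

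In lung the Cd36 group means were lower than vehicle at each dose. Vehicle lungs gave 4.32, 4.61, 4.82 and 4.53 (mice 1 to 4), low-dose lungs 4.17, 4.21 and 4.46, medium-dose lungs 3.64, 3.90, 4.29 and 4.43, and high-dose lungs 3.70, 4.05, 4.42 and 2.90 (mice 16, 17, 19 and 20). The groups overlapped at each dose, and 3 of 4 high-dose arrays lay below all vehicle arrays. The differences were -0.29 ± 0.28 (SE), -0.51 ± 0.26 and -0.80 ± 0.26 at low, medium and high dose. As in liver, these differences are a description. That at high dose ran from -1.62 to -0.39 within the 4 lung slides, and over all lungs it was -0.51 without mouse 20 and -1.02 without mouse 19. The score of 8 lung capillary endothelium markers ranged from -0.07 to 0.27 in vehicle lungs and was 0.09, -0.48, 0.21 and -0.42 in high-dose mice 16, 17, 19 and 20. With that score as a covariate the high-dose difference was -0.70.

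Forestomach Cd36, which played no part in the choice of the gene, also had lower group means at each dose. Vehicle forestomachs gave 1.11, 1.12, 0.98 and 0.25 (mice 1 to 4). Low-dose arrays read 0.48, 0.34 and -0.28, medium-dose arrays -0.40, -0.42, 0.02 and -0.40 and high-dose arrays 0.41, -0.23 and 0.43. All 4 medium-dose arrays lay below all vehicle arrays, while the other doses overlapped them through vehicle mouse 4. The differences were -0.68 ± 0.26 (SE), -1.16 ± 0.24 and -0.66 ± 0.26, and none passed the test (adjusted p = 0.342, 0.483 and 1 by limma). With the glandular stomach score as a covariate they were -0.70, -1.17 and -0.65. The white fat score ran from 0.13 to 1.86 in vehicle forestomachs and lay lower on all low-dose (-0.35 to -0.10) and medium-dose arrays (-0.43 to -0.05), and from -0.13 to 2.98 at high dose. Its part in the Cd36 values was not tested. Within slides, medium dose minus vehicle was negative on 3 of 3, and high dose minus vehicle on 1 of 2 (-0.63 and 0.18).

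**Figure D2:**
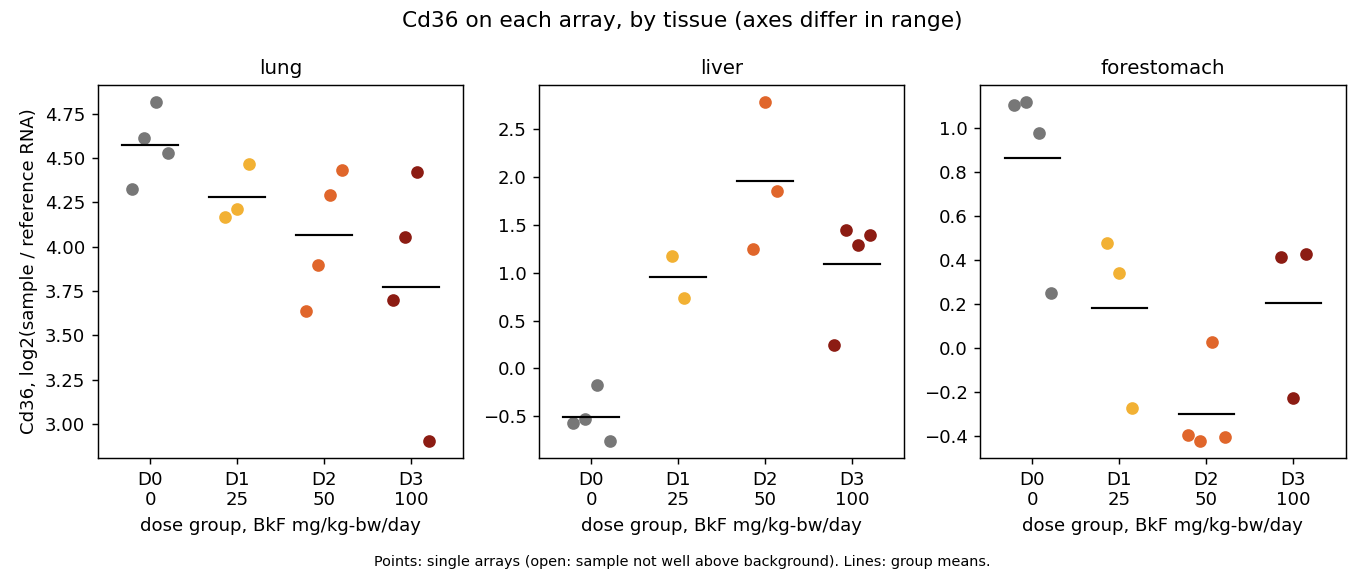
Cd36 as log2 ratio of sample to reference RNA (vertical axis) against dose group and BkF dose in mg/kg-bw/day, 1 panel a tissue, 1 point an array, with lines at group means. All 9 treated livers lie above the 4 vehicle livers, while treated lungs and forestomachs lie level with or below their vehicle arrays.

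The promoters of Cd36, higher in treated liver, and Fabp1, lower there (below), are shown because their values ran in opposite directions on the same liver arrays. Both sequences are the 250 bases before the RefSeq start site in GRCm38.p6. Capitals mark AGGTCA, a part of the PPAR response element and not the full element, and CCAAT, the CCAAT box. Matches on either strand are marked, and AGGTCA on the other strand reads TGACCT.

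Cd36, chr5:17835897-17836146, minus strand: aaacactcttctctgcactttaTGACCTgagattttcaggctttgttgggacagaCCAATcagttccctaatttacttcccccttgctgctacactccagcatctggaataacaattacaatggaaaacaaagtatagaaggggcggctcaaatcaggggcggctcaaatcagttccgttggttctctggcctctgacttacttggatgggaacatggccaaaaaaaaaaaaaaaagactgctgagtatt

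Fabp1, chr6:71199629-71199878, plus strand: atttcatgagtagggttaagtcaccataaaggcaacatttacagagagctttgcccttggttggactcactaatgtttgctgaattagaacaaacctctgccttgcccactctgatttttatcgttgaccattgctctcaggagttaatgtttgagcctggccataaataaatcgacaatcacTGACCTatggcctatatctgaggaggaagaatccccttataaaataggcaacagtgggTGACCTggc

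The Cd36 window held 1 AGGTCA and 1 CCAAT, and the Fabp1 window held 2 AGGTCA, the nearer one starting 9 bases before the start site. Neither held GCGTG, the core of the aryl hydrocarbon receptor response element. Of 32851 promoter windows of this length, 14% held AGGTCA, 33.8% CCAAT and 28.2% GCGTG. Windows were at hand for 8 of the 10 genes, 12 in all. GCGTG was found in 1 window each of Slc27a1, Slc27a2 and Cidec, and AGGTCA also in that of Slc27a2. A match is a description of letters and not a bound site.

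Fabp5 had the pattern nearest to that of Cd36 at high dose, higher than vehicle on every liver array and lower on every lung array. Its product binds fatty acids in skin, fat, endothelium and macrophages and delivers them to nuclear receptors. The vehicle livers gave -1.75, -0.50, -0.96 and -1.18, the low-dose livers -0.51 and -0.03, the medium-dose livers -0.45, 0.47 and 0.11 and the high-dose livers 0.51, 0.29, 0.17 and -0.06. All medium- and high-dose livers lay above all vehicle livers. The differences were 0.83 ± 0.31 (SE), 1.14 ± 0.27 and 1.32 ± 0.25, or 1.77-fold, 2.2-fold and 2.51-fold, and none passed the test (adjusted p = 1, 0.203 and 0.128 by limma). Both channels were well above background on every liver array, and high dose minus vehicle was positive on both liver slides (1.13 and 1.52). The macrophage score was -0.20 to 0.16 in vehicle livers, -0.48 to -0.06 at low, -0.50 to 0.42 at medium and -0.16 to 0.51 at high dose. The hepatocyte score lay below its vehicle range on all medium- and high-dose livers, and the white fat score was 1.80 and 1.13 in high-dose mice 17 and 20. With the white fat score as a covariate the high-dose Fabp5 difference was 1.40, and without those 2 mice it was 1.44. The part of the macrophage and hepatocyte scores in the Fabp5 values was not tested.

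For Fabp5, vehicle lungs gave 0.02, -0.38, -0.11 and -0.06 and high-dose lungs -0.72, -1.42, -0.76 and -1.79. All 4 high-dose lungs lay below all vehicle lungs. The difference was -1.04 ± 0.33 (SE), or 2.06-fold lower (adjusted p = 0.423 by limma), and it was negative on all 4 slides. The 2 lowest, mice 17 and 20, also had the lowest capillary endothelium scores of the high-dose lungs (-0.48 and -0.42, against 0.09 and 0.21 in mice 16 and 19). With that score as a covariate the difference was -1.08. Low-dose lungs (-0.22, -0.49 and 0.34) and medium-dose lungs (-0.81, 0.98, -0.25 and -0.17) overlapped the vehicle range, the value of 0.98 being that of mouse 12, whose array held muscle, macrophage and squamous markers. The high-dose difference of lung and that of liver differed by -2.37 ± 0.48 for lung minus liver (95% interval -3.34 to -1.39). This missed the threshold with limma (adjusted p = 0.0687), and it passed (adjusted p = 0.0461) when the mouse was entered as a random block, since lung and liver came from the same animals. Without any 1 array the adjusted p by limma was between 0.0492 and 0.187, and it passed only without the lung of high-dose mouse 19.

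Forestomach Fabp5 was 5.36, 4.32, 4.61 and 5.01 in vehicle mice, 3.25, 2.96 and 4.41 at low dose, 4.71, 3.86, 4.16 and 3.26 at medium dose and 4.60, 4.18 and 4.75 at high dose. The lowest values stood in the low-dose group. The differences were -1.28 ± 0.38 (SE), -0.83 ± 0.36 and -0.32 ± 0.38 (adjusted p = 0.277, 0.631 and 1 by limma). Fabp5 lay between 4.60 and 5.36 on the 5 arrays low in glandular stomach markers (vehicle mice 1 and 4, medium-dose mouse 11, high-dose mice 16 and 20) and between 2.96 and 4.61 on the other 9. With the glandular score as a covariate the low-dose difference was -0.86. The squamous epithelium score ran from -0.09 to 0.48 in vehicle mice, from -0.80 to -0.30 at low dose, from -1.10 to 0.21 at medium dose and from -0.25 to 0.23 at high dose, and its part in the Fabp5 values was not tested.

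Lpl had higher group means in treated liver, with no dose past the test. Vehicle livers gave 0.16, -1.02, -0.46 and -0.95, low-dose livers -0.09 and 0.20, medium-dose livers 0.56, 2.57 and 0.08 and high-dose livers 0.12, 0.35, 0.41 and 0.97. Vehicle mouse 1 overlapped the treated arrays, and medium-dose mouse 12, also the highest for Cd36, stood well above the rest. The differences were 0.62 ± 0.53 (SE), 1.64 ± 0.47 and 1.03 ± 0.44 (adjusted p = 1, 0.269 and 0.6 by limma). Without mouse 12 the medium-dose value was 0.89. The same livers had the hepatocyte and white fat scores given above. With the white fat score as a covariate the high-dose Lpl difference was 0.90, and without mice 17 and 20 it was 0.83. The part of the hepatocyte score was not tested. A second Lpl probe gave smaller differences of 0.47, 0.92 and 0.51. In lung Lpl differed by 0.07 ± 0.30 at the high dose, with 1.60 the highest array in both groups, and its highest value, 3.15, was the array of medium-dose mouse 12. In forestomach it ranged from -1.80 to 1.70 with no order by dose.

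Fabp1 and Slc27a2, both abundant in hepatocytes, ran the other way in liver. Fabp1 read 10.75, 11.12, 10.98 and 10.96 in vehicle livers, 10.69 and 10.74 at low dose, 10.51, 10.21 and 10.60 at medium dose and 10.33, 10.48, 10.71 and 10.51 at high dose. Every treated liver lay below every vehicle liver. The differences were -0.24 ± 0.14 (SE), -0.51 ± 0.13 and -0.44 ± 0.12, that is 1.43-fold and 1.36-fold lower at medium and high dose, and none passed the test (adjusted p = 1, 0.215 and 0.329 by limma). With the sample channel alone the differences were 0.00, -0.49 and -0.34.

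Slc27a2 read 10.35, 10.41, 10.24 and 10.84 in vehicle livers, 10.20 and 10.21 at low dose, 10.07, 9.60 and 10.12 at medium dose and 9.91, 10.26, 10.15 and 10.41 at high dose. Low- and medium-dose livers lay below all vehicle livers, and high-dose livers overlapped them. The differences were -0.26 ± 0.19 (SE), -0.53 ± 0.17 and -0.27 ± 0.16 (adjusted p = 1, 0.312 and 0.706 by limma). The score of 8 hepatocyte markers ranged from 0.08 to 0.32 in vehicle livers, from 0.09 to 0.14 at low dose, from -0.31 to 0.00 at medium dose and from -0.40 to 0.05 at high dose, so that it lay below vehicle at medium and high dose and within it at low dose. Its part in the values of Fabp1 and Slc27a2 was not tested. In lung Slc27a2 read 1.18, 0.96, 1.19 and 0.64 in vehicle mice and 1.30, 1.25, 1.44 and 1.92 at high dose, all above the vehicle arrays, by 0.48 ± 0.35 (adjusted p = 0.791 by limma).

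**Figure D3:**
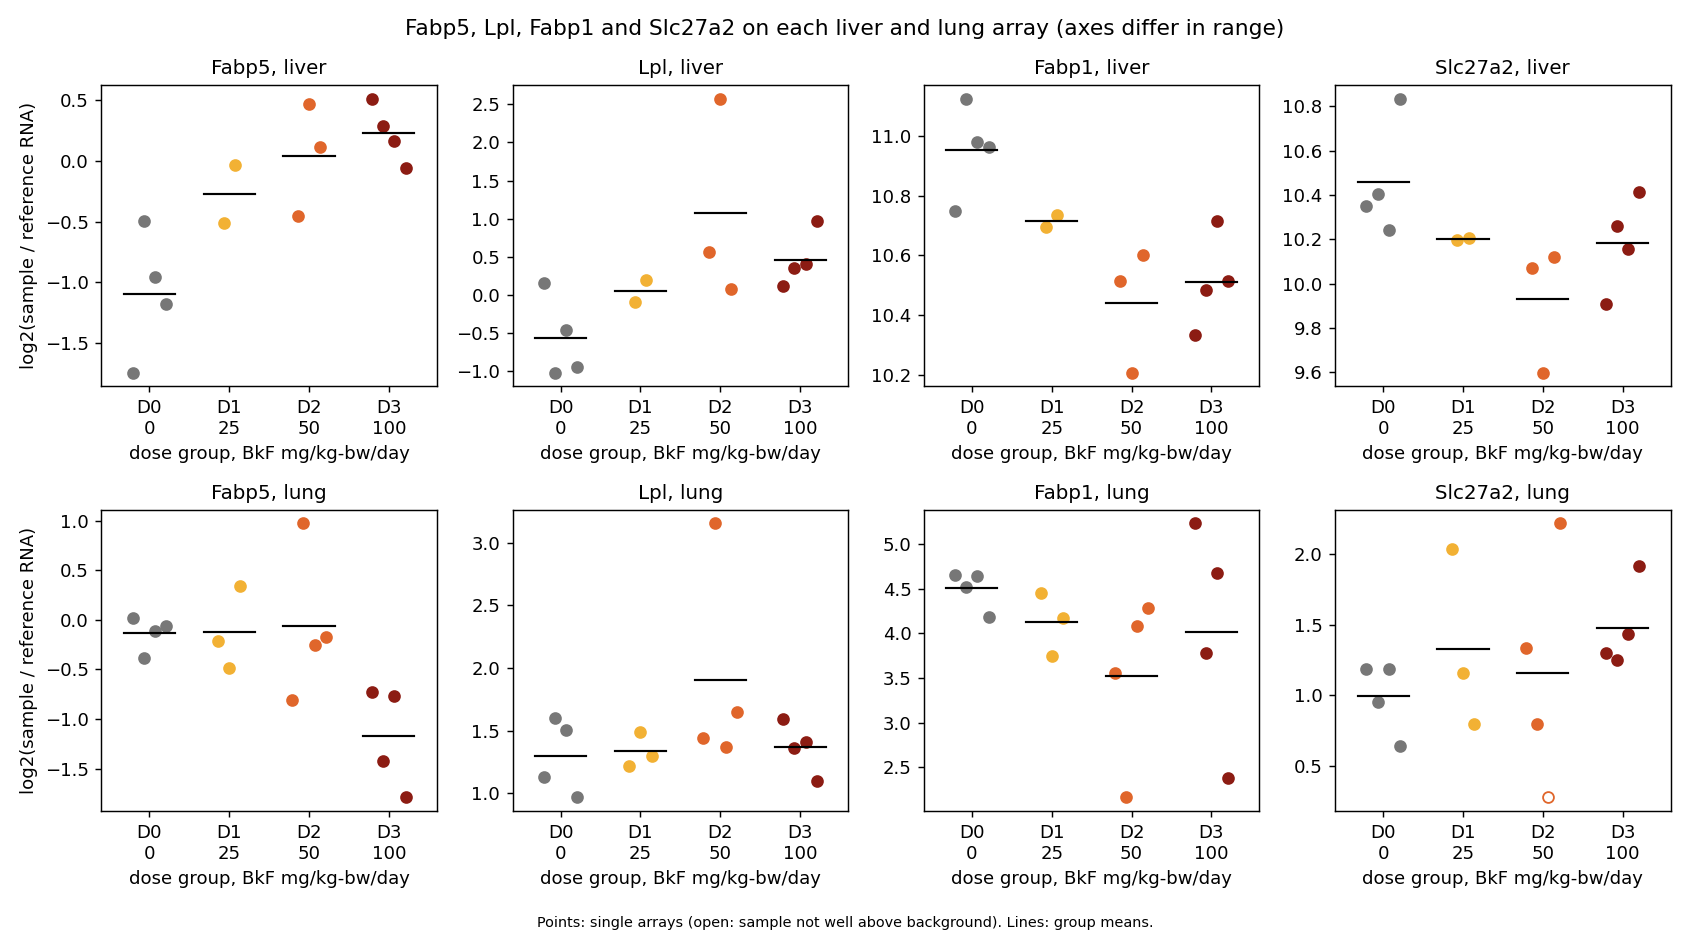
Fabp5, Lpl, Fabp1 and Slc27a2 as log2 ratio of sample to reference RNA (vertical axes, which differ in range) against dose group and BkF dose in mg/kg-bw/day, in liver (top) and lung (bottom), 1 point an array, with lines at group means. In liver Fabp5 and Lpl run upward and Fabp1 downward from vehicle, and in lung the 4 high-dose Fabp5 arrays, from -1.79 to -0.72, lie below the vehicle arrays.

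Fabp1 in lung spread widely, from 2.16 (medium-dose mouse 12) to 5.23 (high-dose mouse 16) against 4.19 to 4.65 in vehicle mice, and the high-dose arrays lay on both sides of the vehicle range. In forestomach Fabp1 was well above background on none of the 5 arrays low in glandular markers and on 8 of the other 9, where it reached 4.62. Fabp2 was divided in a like way, with 2 of 5 and 8 of 9 arrays above background and values up to 3.50. Slc27a1 separated these arrays in full in the opposite direction, 0.17 to 0.51 against -0.67 to 0.07. In liver Fabp2 and Slc27a1 differed from vehicle by no more than 0.15 at any dose, with high-dose intervals of -0.51 to 0.22 and -0.21 to 0.26.

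Slc27a4, the transport protein of gut and skin barrier, was lower in lung by 0.30 ± 0.12 (SE) at high dose (adjusted p = 0.559 by limma). Its high-dose arrays read 1.92, 1.42, 1.78 and 1.76 against 2.12, 2.04, 2.11 and 1.81, and 3 of 4 lay below all vehicle arrays. The low- and medium-dose differences in lung were -0.19 ± 0.13 and -0.24 ± 0.12, also not called. Within slides, low, medium and high dose minus vehicle were negative on 3 of 3, 4 of 4 and 4 of 4. In liver it differed by 0.04 ± 0.15. Vldlr had a higher group mean in forestomach at low dose, reading -0.32, -0.35 and -1.04 against -1.70, -1.33, -0.98 and -1.66, by 0.85 ± 0.28 (adjusted p = 0.298 by limma), and by 0.59 and 0.47 at medium and high dose. The glandular stomach score was -5.24 and -5.00 in vehicle mice 1 and 4, 0.37 and 0.39 in the other 2 vehicle forestomachs and -0.09 to 0.59 at low dose. With that score as a covariate the Vldlr differences were 0.53, 0.41 and 0.55 at low, medium and high dose (adjusted p = 0.77, 0.653 and 0.987 by limma). In lung its differences were 0.10, 0.10 and 0.09, while a second Vldlr probe gave -0.07, 0.10 and -0.25 there, with none called. In liver Vldlr was well above background on 1 of 4 vehicle arrays (-3.95 to -3.24) and 4 of 4 high-dose arrays (-3.84 to -2.67), which overlapped.

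In liver Cidec was highest on 3 arrays, 2 of which held fat markers. Its high-dose values were 0.70, 3.36, 0.31 and 2.04 (mice 16, 17, 19 and 20), and 3 of the 4 were well above background against none of 4 vehicle arrays (0.38, 0.35, 0.43 and 0.55). Against vehicle livers at background only a bound can be given. In the sample channel taken alone, without the reference, the high-dose mean was at least 2.36-fold higher. That bound holds for the mean and not for each array, since mouse 19 lay below all 4 vehicle livers in log2 ratio. The log2 ratio gave 2.26-fold (adjusted p = 0.644 by limma), and its difference was 0.59 to 1.61 without any 1 array. The white fat score was 1.80 and 1.13 in mice 17 and 20 and between -0.16 and 0.19 in vehicle livers, and the fat hormone Adipoq was well above background in 0 of 4 vehicle and 3 of 4 high-dose livers, up to 3.13. The 2 high-dose livers other than those of mice 17 and 20 read 0.70 and 0.31. Medium-dose mouse 12 read 2.36 with a white fat score of 0.10, while the other 2 medium-dose livers were not above background. A second Cidec probe, too dim in liver to be tested, read between 0.01 and 0.77 on the high-dose livers. In lung Cidec ranged from 2.74 to 4.78 with differences of 0.55, 0.29 and 0.36 that did not pass the test, and its highest array (low-dose mouse 7) also had the highest white fat score of the lungs, 1.93. In forestomach the highest Cidec value, 5.18, was that of high-dose mouse 16, with a white fat score of 2.98.

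**Figure D4:**
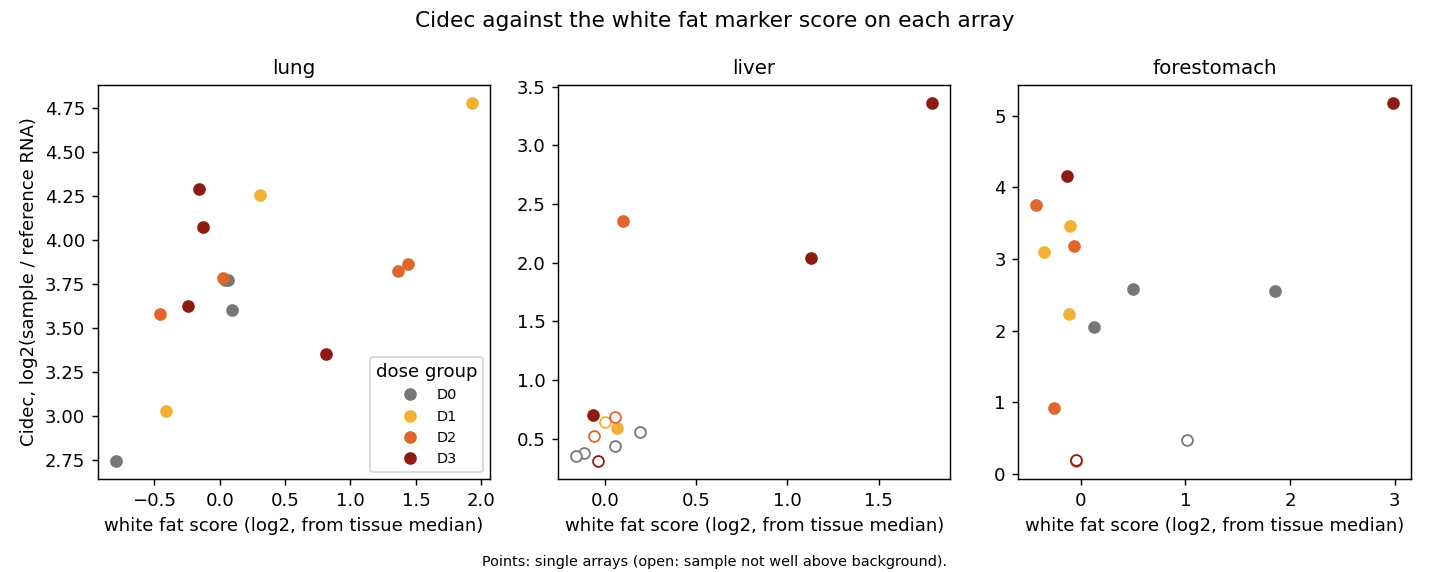
Cidec as log2 ratio of sample to reference RNA (vertical axis) against the white fat marker score (horizontal axis, mean log2 distance from the tissue's median array), 1 point an array, coloured by dose group, open where the sample was not well above background. The high-dose livers at 3.36 and 2.04 have scores of 1.80 and 1.13, and the medium-dose liver at 2.36 has a score of 0.10.

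Cd36 was chosen on its high-dose and vehicle values in liver and lung, so the counts of those tissues are given for the other 9 genes. In liver 0 of the other 9 were called at low dose (0% of all 30460 probes), at medium dose (0.0427%) and at high dose (0.0525%). An unadjusted p under 0.05 by limma was reached in liver by 1 of the other 9 at low dose (1.54% of all probes), 4 at medium dose (10.7%) and 3 at high dose (7.8%). Vehicle and treated ranges did not overlap for 3 of the other 9 liver genes at low dose (11.3%), 3 at medium dose (9.27%) and 2 at high dose (5.99%). Those at high dose were Fabp5 above and Fabp1 below, and those at medium dose were these with Slc27a2 below. At low dose they were Fabp1 and Slc27a2 below and Cidec above, the last with 0 of 4 vehicle and 1 of 2 low-dose arrays above background. Cidec was kept in liver through treated arrays only, so its place in the low-dose count is a description.

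In lung 0 of the other 9 were called at low, medium and high dose (0%, 0.0153% and 0.0336% of all 32697 probes). An unadjusted p under 0.05 by limma was reached by 0, 0 and 2 of them (1.76%, 4.25% and 8.02% of all probes). At high dose 2 of the other 9 did not overlap (5.32%), Fabp5 below and Slc27a2 above. In forestomach 0 of 10 genes were called at any dose (0%, 0% and 0% of all 25305 probes). There 3, 3 and 1 of 10 reached an unadjusted p under 0.05 by limma at low, medium and high dose (12.1%, 7.59% and 2.2% of all probes), and 1 did not overlap at medium dose, Cd36 (3.55%). The median high-dose difference without Cd36 was 0.04 in liver, -0.06 in lung and -0.09 in forestomach, against 0.00 over all probes in each tissue.

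Between tissues, the high-dose difference of Cd36 was 2.40 lower in lung than in liver, which is the contrast it was chosen on and carries no test. Of the other 9 genes 0 were called for lung minus liver (0.0153% of all probes). For lung minus forestomach 0 of the other 9 were called (0.0122% of all probes), and for liver minus forestomach 0 of the other 9 (0%). The high-dose difference of Fabp5 was 1.32 in liver and -0.32 in forestomach, and liver minus forestomach, 1.64 ± 0.50 (SE), was under an unadjusted p of 0.05 but not past the threshold (adjusted p = 1 by limma).

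**Figure D5:**
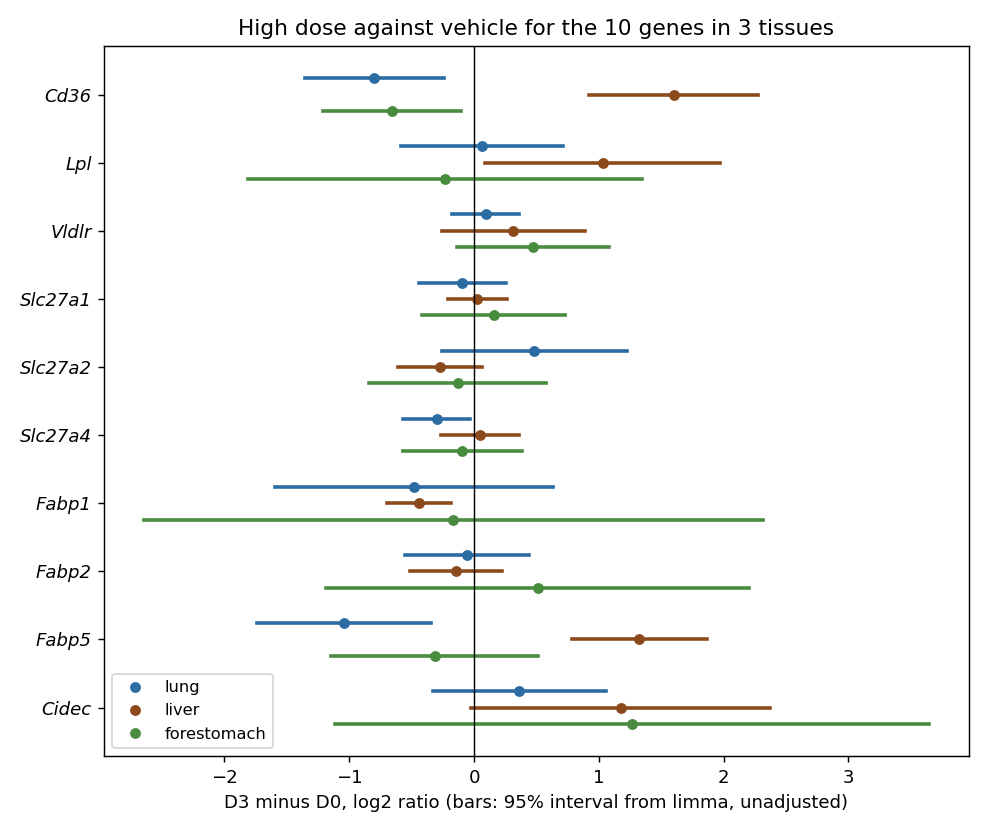
High dose minus vehicle as a log2 difference (horizontal axis) for the 10 genes, in lung, liver and forestomach, with points at the estimate and bars for the unadjusted 95% interval from limma. Cd36 and Fabp5 lie at 1.60 and 1.32 in liver and at -0.80 and -1.04 in lung, and no other gene has an interval above 0 in 1 tissue and below 0 in another.

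Across the 13 liver arrays the genes that tracked Cd36 most closely were Atp10a (Pearson r = 0.95), Insl6 (0.93), Entpd2 (0.93), Mmp13 (0.92) and Gnai2 (0.91), of 14235 genes. These arrays share the dose groups, so r holds the difference between treated and vehicle mice. Among the 10 genes, Lpl (r = 0.82, rank 87) and Fabp5 (r = 0.73, rank 345) ran with it and Fabp1 (r = -0.76) and Slc27a2 (r = -0.69) against it. Across 15 lung arrays the closest were Arhgef18 (0.97), Emp2 (0.96), Mprip (0.93), Fzd1 (0.92) and Serpinb6b (0.92), and none of the 10 genes exceeded the 0.60 of Fabp1. Across 14 forestomach arrays they were Lcmt1 (0.89), Ubqln1 (0.89), Dlx3 (0.89), 1700016H13Rik (0.87) and Zc3h12c (0.85).

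The wider set of 57 genes around fatty acid uptake (other transport and binding proteins, acyl-CoA synthetases, lipases and their partners, receptors, membrane partners, lipid droplet genes and nuclear receptors) gave no call in any tissue or dose, with 50 genes tested in liver, 48 in lung and 44 in forestomach, beside a background of 0% to 0.0525% of all probes. At high dose vehicle and treated ranges did not overlap for 6 of 50 liver genes (5.99% of all probes) and 6 of 48 lung genes (5.32%). At high dose 25 of 50 liver genes were higher and 25 lower. The highest in liver was Fabp4 (0.87 ± 0.41), the binding protein of fat cells and also 1 of the white fat markers above. Fabp3 followed (0.81 ± 0.67), and then Pparg, the fat cell nuclear receptor known to act on Cd36, which was higher by 0.75 ± 0.22 with all 4 high-dose livers above all vehicle livers (adjusted p = 0.406 by limma). The lowest were Angptl4 (-0.85 ± 0.46), an inhibitor of lipoprotein lipase, Fabp7 (-0.80 ± 0.26) and Acsl1 (-0.49 ± 0.24), the acyl-CoA synthetase of hepatocytes, whose 4 high-dose livers all lay below the vehicle livers.

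In lung 26 of 48 genes were higher and 22 lower at high dose. Gpihbp1, which anchors lipoprotein lipase to the capillary wall, was lower by 0.78 ± 0.34 with all 4 high-dose lungs below the vehicle lungs (adjusted p = 0.58 by limma), while in liver it was higher by 0.52 ± 0.21 with all 4 above. It is also 1 of the 8 capillary markers scored above. Hilpda, a lipid droplet protein induced by low oxygen, gave -1.05 ± 0.39 with 4 of 4 below, and Angptl4 gave -0.79 ± 0.27. Fabp3 (0.85 ± 0.72), Cavin1, a coat protein of caveolae (0.68 ± 0.29, 4 of 4 above), and Ppard (0.60 ± 0.14, 4 of 4 above) were the highest. In forestomach 21 of 44 were higher and 23 lower, with Plin5 (0.47), Nr1i2 (0.44) and Acsl3 (0.38) at the top and Angptl4 (-1.15), Fabp3 (-0.99) and Mogat1 (-0.80) at the bottom.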

How the data were processed

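Agilent 2-colour arrays were hybridised with sample RNA (Cy5) and Universal Mouse Reference RNA (Cy3), always in the same dye orientation, so a dye effect cancels between arrays of 1 tissue. The authors deposited scanner output of Feature Extraction 10.7.3.1 (lung, forestomach) and 11.0.1.1 (liver), per the file headers, holding spot intensity values and the software's log10 ratio, and a value table of their normalized log2 ratios. Median intensities without background subtraction, as in the study's methods, were turned to log2 ratios, flagged spots (0.392%) and control spots were left out, loess was run within each array and spots of 1 probe were averaged (R 4.3.3, limma 3.58.1). Probes were named through RefSeq accessions (26413 of 55681). A probe was kept in a tissue where the sample was well above background on as many arrays as its smallest group holds. Where several probes named a gene, the brightest kept one was used. The study's own test (MAANOVA) was not installed, so limma with 1 mean per dose group was fitted, with Benjamini-Hochberg adjustment over all kept probes (32697 lung, 30460 liver, 25305 forestomach). The precision is limited by the 2 to 4 arrays a group. The share of probes well above background was 28.1% to 60% per array.

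Lung and liver, lung and forestomach, and liver and forestomach shared 13, 14 and 12 mice, since a mouse number in the labels marks 1 animal. Deviations from group means of same-mouse arrays correlated between -0.205 and 0.382, and the block on mouse had a consensus correlation of 0.0594. Lung and forestomach shared slides, and liver had its own.

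Members, wider lists, markers and tests were chosen with earlier results of these data known. Named genes were all members, the wider-list genes called or among the 3 highest and 3 lowest at high dose, and the 5 with the highest correlation to Cd36 in each tissue. Scripts were tested on simulated data. Alternatives were the value table, the scanner's log10 ratios, normexp background correction with an offset of 50, no filter, slide or mouse as a block, only the groups compared, marker scores as covariates, the mean over probes and each array left out. The value table was used for lung and forestomach only, because its liver columns did not correlate with the liver scanner values probe by probe (r between -0.00301 and 0.000338).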

Additional observations from a re-analysis of the deposited data

Results flagged for a closer look

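Of 70 groups of 4 arrays examined over the 10 genes, 7 held an array whose gap to the nearest other array exceeded Dixon's 95% critical value as a share of the group's range, which chance gives in about 1 in 20 groups. Cd36 in the liver of high-dose mouse 16 read 0.25, below the other 3 arrays. Cd36 in the forestomach of vehicle mouse 4 read 0.25, below the other vehicle arrays, and in that of medium-dose mouse 13 it read 0.02, above the others. Lpl in the lung of medium-dose mouse 12, the array with muscle, macrophage and squamous markers, read 3.15. Slc27a2 in the forestomach of medium-dose mouse 15 read 0.91, the only array of its group well above background. Fabp2 in the lung of medium-dose mouse 13 read 0.08, not above background, and Cidec in the lung of vehicle mouse 4 read 2.74.

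The high-dose difference of Fabp5 had opposite signs in lung and liver, and lung minus liver was -2.37, with every lung array below and every liver array above its vehicle arrays. The test of this difference missed the threshold (adjusted p = 0.0687 by limma), and it passed with the mouse as a random block (adjusted p = 0.0461 by limma).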

How the results depend on the processing

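The medium-dose liver difference of Cd36 kept its sign under every alternative run, and it no longer crossed the threshold with the mean over probes (2.47), with only the 2 groups compared (2.47), with the sample channel alone (2.35), with the scanner software's ratio (3.26) and with slide as a block (2.48). Then 0 of the 10 genes were past the threshold at that dose. Without any 1 array it was 2.06 to 2.82, and 0 to 1 gene was past it. It is set against the vehicle arrays that Cd36 was chosen on, so its crossing is no test. The high-dose liver difference of Cd36 was 2.25 with the scanner's ratio. At high dose in liver the count of genes past the threshold was 1 with only the 2 groups compared and 0 to 1 without any 1 array, but Cd36 was chosen on that value, so its crossing is no test. Among high-dose differences between tissues, lung minus liver had 2 genes past the threshold with mouse as a replicate block and with the scanner's ratio. Of these Fabp5 is a test and Cd36, chosen on this contrast, is not. Without any 1 array the count was 0 to 2. Liver minus forestomach had 1, again Cd36, with the scanner's ratio and 0 to 1 without any 1 array. Cd36 was chosen on its high-dose liver value, so its crossing there is no test either. Pairing by mouse applied to these contrasts only, since dose groups share no mice. At high dose the sign turned for Cidec in forestomach (-1.65) and Fabp1 in lung (0.41) with the scanner's ratio, for Fabp1 in forestomach with the glandular score (0.24), for Fabp2 (0.05) and Lpl (-0.05) in lung with the capillary score, for Vldlr in lung with the mean over probes (-0.08) and for Slc27a4 in forestomach with slide as a block (0.11). Slc27a1 in liver turned to -0.04 without mice 17 and 20, -0.06 with the sample channel alone, -0.01 with the scanner's ratio and -0.04 with the white fat score, and Slc27a4 in liver to -0.02 without those mice. Leaving out 1 array turned the sign of Fabp1 in forestomach (-1.16 to 0.35) and lung (-0.89 to 0.06), Fabp2 in forestomach (-0.51 to 1.16) and lung (-0.28 to 0.13), Lpl in forestomach (-0.63 to 0.44) and lung (-0.05 to 0.17), Slc27a1 in forestomach (-0.04 to 0.39), liver (-0.01 to 0.08) and lung (-0.21 to 0.03), Slc27a2 in forestomach (-0.36 to 0.09), and Slc27a4 in forestomach (-0.32 to 0.08) and liver (-0.05 to 0.18). None of these passed the test, and the cause was not tested. The alternatives with the white fat and capillary scores, the sample channel alone and the livers of mice 17 and 20 left out were chosen after seeing the data. The authors' value table was not run for liver. Dim ratios (Cidec, Vldlr and the Slc27a2 and Fabp1 references) limit what these arrays can show.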
